A study of Homo sapiens with 6 samples.

Results

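The 10 noncoding snoRNA host genes GAS5, SNHG1, SNHG3, SNHG5, SNHG6, SNHG7, SNHG8, SNHG12, ZFAS1 and EPB41L4A-AS1 were examined in MCF10A, an established human cell line from breast epithelium, with and without depletion of the transcription factor PAX9. They were chosen by exact symbol from 26822 gene symbols, and each was found in exactly 1 row of the deposited table. The control cells (siNT) had received non-targeting siRNAs and the depleted cells (siPAX9) siRNAs against PAX9, in both cases at 30 nM for 72 hours, with 3 samples in each of the 2 groups. Nothing in the labels says whether the 3 samples were separate cultures. Poly(A)+ libraries were sequenced as single-end reads, and the authors pooled each group's samples into 1 FPKM, a fragment count divided by transcript length in kilobases and by the mapped reads. The table therefore holds 1 value per gene in siNT and 1 in siPAX9, with no value per sample and no counts. From these values no difference could be set against the spread between replicates. The authors' own test statistics, p-values and q-values, which were also deposited, were not used, so no difference was tested here. Every change below is the log2 ratio of the siPAX9 value over the siNT value.

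A snoRNA host gene carries small nucleolar RNAs in its introns. The introns are spliced out and trimmed to box C/D snoRNAs, which guide 2′-O-methylation of ribosomal RNA, or to box H/ACA snoRNAs, which guide pseudouridylation. The spliced exons of these 10 hosts have no long conserved reading frame, and for several of them, GAS5 being the best studied, the spliced RNA is known to be engaged by ribosomes and removed by nonsense-mediated decay (NMD). Many snoRNA hosts, coding and noncoding, start like the mRNAs of ribosomal proteins, with a C followed by an unbroken run of pyrimidines. This 5′ terminal oligopyrimidine (TOP) start ties translation of the transcript to mTOR signalling and to the RNA-binding protein LARP1.

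The start sequences are shown first because the TOP-like start is the feature by which these genes are grouped. In the GENCODE annotation of release 44 placed on GRCh37, whose coordinates are those of hg19, the start shared by the most transcripts of each gene was taken. A run was defined as a C followed by at least 4 more C or T. Such a run began exactly at that start in 6 of the 10 genes (60.0%), namely GAS5, SNHG6, SNHG8, SNHG12, ZFAS1 and EPB41L4A-AS1, against 1543 of 55064 annotated genes (2.80%). The printed windows run from 10 bases before the start to 20 bases from the start onward, with the run nearest to the start in capitals. The window of SNHG6 is not printed.
GAS5, chr1:173837108-173837137, minus strand: accatactgtCTTTTCgaggtaggagtcga
SNHG8, chr4:119199903-119199932, plus strand: aggcctcggcCTTTCacattcgggaagcgt
SNHG12, chr1:28908366-28908395, minus strand: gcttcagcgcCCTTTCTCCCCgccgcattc
ZFAS1, chr20:47895169-47895198, plus strand: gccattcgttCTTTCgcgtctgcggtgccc
EPB41L4A-AS1, chr5:111496551-111496580, plus strand: ggaagcctgtCCTTTCTTCCTTTTggtgcg

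The run was longest in EPB41L4A-AS1, with 14 pyrimidines, followed by SNHG12 with 11, SNHG6 with 7, GAS5 with 6 and SNHG8 and ZFAS1 with 5 each. These 3 longest runs were the only ones among the 10 genes of at least 7 pyrimidines, against 1.36% of all annotated genes. The other 4 genes are shown for contrast, because no run began at their most shared start.
SNHG7, chr9:139622617-139622646, minus strand: ccttctcgtCCTCTgcgtgcgccggaggct
SNHG5, chr6:86388447-86388476, minus strand: ggagctactggctgcgcacttcggtCTTTT
SNHG3, chr1:28832482-28832511, plus strand: cacgcgcaatagacattccaggaCTTCCgg
SNHG1, chr11:62623338-62623367, minus strand: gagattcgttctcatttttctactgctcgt

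In SNHG7 the run began 1 base before the start, in SNHG3 and SNHG5 it began 13 and 15 bases after it, and in SNHG1 the nearest run lay 19 bases before the start and outside the printed window. The count depended on which annotated start was used. At the start of the GENCODE canonical transcript 3 of 10 genes had the run (GAS5, SNHG12 and ZFAS1, against 2.96% of genes), and at the RefSeq start, given for 9 of the genes, it was found in 3 of them (SNHG5, SNHG12 and ZFAS1, against 4.02% of 27305 genes). SNHG12 and ZFAS1 had the run at all 3 kinds of start, and SNHG1, SNHG3 and SNHG7 at none. Start sites were not measured here. Most annotated transcripts used the start shown for GAS5 (50 of 91), SNHG5 (61 of 89) and SNHG7 (6 of 10). A minority did for EPB41L4A-AS1 (2 of 9), SNHG12 (4 of 19), SNHG6 (3 of 8), SNHG8 (5 of 15), ZFAS1 (5 of 14), SNHG1 (25 of 80) and SNHG3 (1 of 3), which includes the 3 genes with the longest runs. Other annotated starts of these genes were not examined, so for SNHG1, SNHG3 and SNHG7 the name TOP-like had no run behind it at the starts examined.

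PAX9 itself, a paired-box transcription factor, was at 2.80 FPKM in siNT and 0.325 FPKM in siPAX9, 11.6% of the control. Rows were read against all 19274 rows with at least 1 FPKM in both groups, whose median log2 change was -0.08. Among the named rows the summed FPKM was 572477 in siNT and 474457 in siPAX9, and making these sums equal would add 0.27 to every log2 change. How the libraries were scaled against each other is not given in the sources used here, so values with equal sums are given as well. Of 9 breast epithelial markers all had at least 1 FPKM in the higher group, and their summed FPKM was 4053 in siNT and 5328 in siPAX9. The keratins KRT17 (1718 and 2088 FPKM) and KRT5 (1558 and 1807 FPKM) led the sum. The log2 changes ran from -0.49 for TP63 to 1.46 for CDH1. Of 7 luminal markers 4 reached that level (summed FPKM 304 and 202), led by KRT18 and KRT8 and ranging in log2 change from -1.04 for EPCAM to 0.29 for GATA3, with ESR1, PGR and KRT19 below it. Of 8 markers of blood, endothelial and stromal cells, only PECAM1 and COL1A1 reached it in 1 of the groups (summed over all 8 markers, 3.13 and 4.79 FPKM), while CD3E and COL3A1 were listed at 0 in both groups.

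Of the 10 hosts 9 were lower in siPAX9, as were 56.0% of all rows with at least 1 FPKM in both groups. By at least 2-fold 5 of the 10 were lower, against 8.26% of all rows and 5.79% of the named rows, and by at least 1.5-fold 8 were lower, against 19.7% of all rows. The 5 genes past the 2-fold limit were GAS5, EPB41L4A-AS1, SNHG5, SNHG6 and SNHG7. SNHG8, ZFAS1 and SNHG3 were lower by 1.55- to 1.88-fold, SNHG1 differed by 1.13-fold, and SNHG12 was the 1 host with the higher value in siPAX9. No host was higher by at least 2-fold, against 6.49% of all rows. The median log2 change of the 10 genes was -1.00. Among the 3031 named rows within their range of mean FPKM, the median was -0.18 and 5.71% were lower by at least 2-fold. With equal sums the median of the hosts was -0.73 and that of all rows 0.19, and 2 hosts (GAS5 and EPB41L4A-AS1) were lower by at least 2-fold, against 4.95% of all rows.

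**Figure D1:**
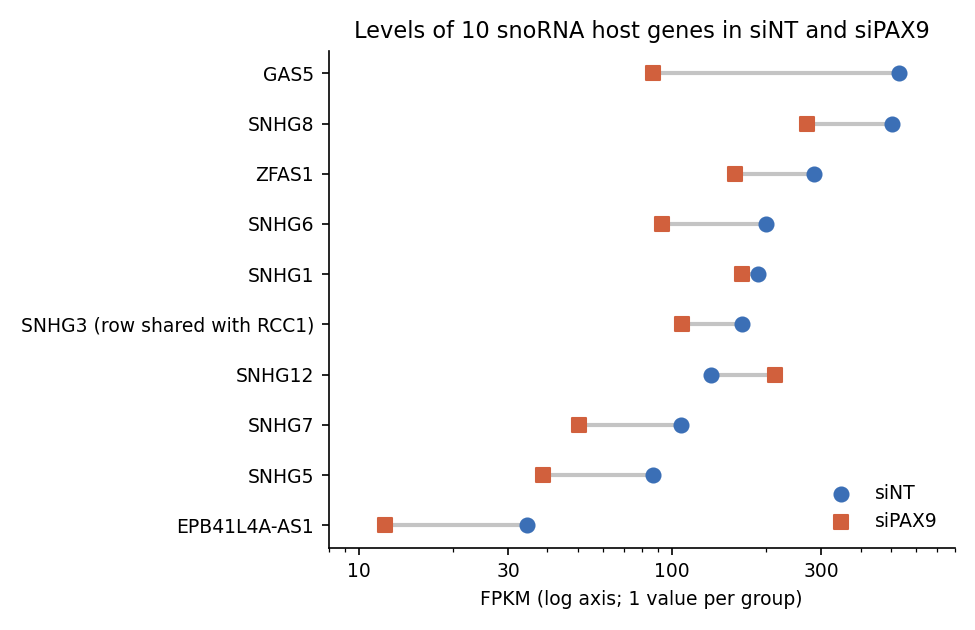
FPKM of the 10 snoRNA host genes on a log axis, 1 pooled value per group, with a circle for siNT and a square for siPAX9, ordered by the siNT value. The square lies left of the circle in 9 genes, farthest for GAS5 (531 and 86.9 FPKM), and right of it for SNHG12 (133 and 213 FPKM).

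GAS5, the growth arrest-specific transcript, moved most. Its row (chr1:173828002-173837215, minus strand), which also carries 7 snoRNA symbols, had 531 FPKM in siNT and 86.9 FPKM in siPAX9, 16.4% of the control and a 6.11-fold lower level (log2 change -2.61). Only 0.202% of named rows with at least 1 FPKM in both groups had a lower change. In siNT it was the most abundant of the 10 hosts and above 98.9% of those rows, and in siPAX9 it was the seventh of the 10. With equal sums its log2 change was -2.34. RefSeq places 11 snoRNAs inside the gene, 10 of the C/D class and 1 of the H/ACA class, the most of any of the 10 hosts.

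EPB41L4A-AS1, the host of the H/ACA snoRNA SNORA13, was the least abundant of the 10 genes in both groups. It had 34.3 FPKM in siNT and 12.1 FPKM in siPAX9, 35.3% of the control (log2 change -1.50, or -1.23 with equal sums). Its row spans chr5:111489924-111755010, a stretch that also holds the coding gene EPB41L4A on the opposite strand.

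SNHG5, SNHG6 and SNHG7 had nearly the same ratio at different levels. SNHG5 (chr6:86381543-86388606, minus strand), which carries the C/D snoRNAs SNORD50A and SNORD50B, had 86.9 FPKM in siNT and 38.6 FPKM in siPAX9 (log2 change -1.17). SNHG6 (chromosome 8, minus strand), which carries the C/D snoRNA SNORD87, had 199 FPKM in siNT and 92.8 FPKM in siPAX9 (log2 change -1.10). SNHG7 (chr9:139607024-139622636, minus strand), which carries the H/ACA snoRNAs SNORA17A and SNORA17B, had 107 FPKM in siNT and 50.4 FPKM in siPAX9 (log2 change -1.08). All 3 stood between 44.4% and 47.1% of the control. SNHG7 was the gene nearest to the 2-fold limit among those past it. With equal sums their log2 changes lay between -0.90 and -0.81, inside the limit.

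SNHG8 and ZFAS1, the second and the third most abundant hosts in siNT, stood just short of the limit. SNHG8 (chr4:119199917-119200978, plus strand), the host of the H/ACA snoRNA SNORA24, had 506 FPKM in siNT and 269.6 FPKM in siPAX9 (log2 change -0.91) and was the most abundant of the 10 hosts in siPAX9. ZFAS1 (chr20:47862439-47905795, plus strand), which carries the C/D snoRNAs SNORD12, SNORD12B and SNORD12C, had 284 FPKM in siNT and 159 FPKM in siPAX9, 56.1% of the control (log2 change -0.84).

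SNHG3, which carries the H/ACA snoRNAs SNORA73A and SNORA73B, cannot be read on its own. Its row (chr1:28832455-28865708, plus strand) is shared with RCC1, the coding gene for the exchange factor of the GTPase RAN, and the single FPKM covers both. That row had 167 FPKM in siNT and 108 FPKM in siPAX9 (log2 change -0.63). Without it the median log2 change of the other 9 hosts was -1.08, and 8 of those 9 were lower.

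SNHG1 (chr11:62619238-62623360, minus strand), which carries 8 C/D snoRNAs from SNORD22 to SNORD31, differed least. It had 188 FPKM in siNT and 167 FPKM in siPAX9, 88.7% of the control. Of the named rows 41.7% had a change lower than its log2 change of -0.17, and with equal sums it was 0.10, so that its direction depended on the scaling. Of the 4 settings tried, only centring on the median row and equal sums could change a sign. SNHG1 was the only host of the 10 whose sign changed.

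SNHG12 (chr1:28879529-28908366, minus strand), host of the C/D snoRNA SNORD99 and of 3 H/ACA snoRNAs, went the other way. It had 133 FPKM in siNT and 213 FPKM in siPAX9, 1.61 times the control (log2 change 0.68, or 0.95 with equal sums). Its place among the 10 hosts went from the seventh in siNT to the second in siPAX9, and its share of their summed FPKM from 5.94% to 17.8%. The share of GAS5 went from 23.7% to 7.26% in the same sum, which was 2237 FPKM in siNT and 1198 FPKM in siPAX9. GAS5 and SNHG12, at opposite ends, are both on the minus strand of chromosome 1, had the pyrimidine run at 2 and 3 of the 3 kinds of annotated start, and are the only 2 of the 10 genes that hold both classes of snoRNA. The levels of the hosts spanned 15.5-fold in siNT and 22.3-fold in siPAX9.

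Class of snoRNA did not separate the hosts. Of the 4 with only C/D snoRNAs (SNHG1, SNHG5, SNHG6 and ZFAS1) 2 were lower by at least 2-fold, with log2 changes from -1.17 to -0.17. Of the 4 with only H/ACA snoRNAs (SNHG3, SNHG7, SNHG8 and EPB41L4A-AS1) 2 were also lower by at least 2-fold, from -1.50 to -0.63. The share over all rows was 8.26%. The ranges overlap. The pyrimidine run did not separate them either, since the 6 genes with a run at the most shared start include both GAS5 and SNHG12.

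The snoRNAs at these loci are listed in part with the host and in part in rows of their own. The row of GAS5 also carries the symbols of 7 snoRNAs, that of SNHG1 of 8, that of SNHG12 of 3, that of SNHG7 of 2 and those of SNHG3 and SNHG5 of 1 each, so each single FPKM is that of the merged locus and not of the host alone. Of 12 separate snoRNA rows 5 were listed at 0 in both groups (SNORD74, SNORD75, SNORD81, SNORD50A and SNORD99) and 5 had at least 1 FPKM in both. In the GAS5 locus SNORD76 had 1331 FPKM in siNT and 1472 FPKM in siPAX9, a log2 change of 0.15 beside -2.61 for the host row. At ZFAS1, SNORD12 had 55.1 and 32.7 FPKM, SNORD12B 301 and 347 FPKM, and SNORD12C 92.5 and 273 FPKM in siNT and siPAX9, a log2 change of -0.75, 0.20 and 1.56. SNORA24, inside SNHG8, had 80.9 and 62.4 FPKM (log2 change -0.37). SNORD87 in SNHG6 was listed at 87.3 FPKM in siNT and at 0 in siPAX9, and SNORA13 in EPB41L4A-AS1 at 0.113 and 5.45 FPKM, but the authors marked both rows as not tested. Mature snoRNAs have no poly(A) tail, and the reads behind each of these short rows are not known, so the values were not taken as levels of the mature snoRNAs. The sum of reads that the quantification assigned to a snoRNA row instead of its host row is not known.

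Several hosts start next to, or lie across from, a coding gene, and the coding neighbours did not follow the hosts in every pair. The start of GAS5 lies 93 bases from that of ZBTB37, a zinc finger gene on the opposite strand, which had 1.90 FPKM in siNT and 3.02 FPKM in siPAX9 (log2 change 0.67). The start of ZFAS1 lies 216 bases from that of ZNFX1, a helicase-like zinc finger gene, which had 7.95 FPKM in siNT and 20.2 FPKM in siPAX9 (log2 change 1.35). In both pairs the host was lower and the neighbour higher. The start of SNHG1 lies 119 bases from that of SLC3A2, the heavy chain of amino acid transporters, which had 189 FPKM in siNT and 188 FPKM in siPAX9 (log2 change 0.00).

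The other 4 coding neighbours with a row overlap their host or end near it, with their own starts 15612 to 258449 bases away. For SNHG12 the neighbour is TRNAU1AP, which acts in selenocysteine insertion, at 4.56 and 4.93 FPKM in siNT and siPAX9 (log2 change 0.11). For EPB41L4A-AS1 it is EPB41L4A, a band 4.1-like protein gene, at 10.5 and 12.6 FPKM (log2 change 0.26). For SNHG6 it is MCMDC2, at 3.13 and 1.87 FPKM (log2 change -0.75), and for SNHG7 it is FAM69B, at 0.965 and 0.418 FPKM (log2 change -1.21), the 1 neighbour below 1 FPKM in both groups. GAS5-AS1, the noncoding antisense partner of GAS5, had 11.3 and 10.7 FPKM (log2 change -0.07), and EPB41L4A-AS2 had 1.27 and 1.90 FPKM (log2 change 0.58). The library protocol does not state that strand was kept. Exons of SNHG6, SNHG7, SNHG12 and EPB41L4A-AS1 overlap exons on the opposite strand, so reads of the partners there cannot be told apart. Annotated exons of SNHG8 overlap those of PRSS12, but only the row of SNORA24 overlapped the SNHG8 row. In each pair with values given here but SNHG1 with SLC3A2 the host had the higher FPKM in siNT. An annotated coding gene without a symbol starts 15 bases from SNHG5 on the same strand and matched no row.

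**Figure D2:**
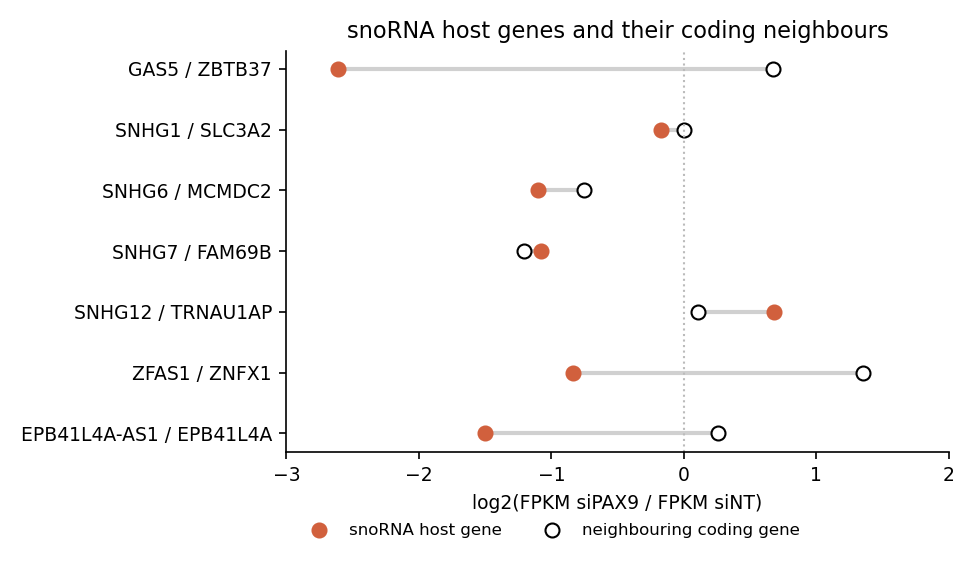
log2 ratio of siPAX9 over siNT for 7 snoRNA host genes (filled circles) and for the coding gene next to or across from each (open circles), 1 pooled value per gene. The host lies left of its neighbour in 5 pairs, with the widest gaps at GAS5 and ZBTB37 (-2.61 and 0.67), at ZFAS1 and ZNFX1 (-0.84 and 1.35), and at EPB41L4A-AS1 and EPB41L4A (-1.50 and 0.26).

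The 10 genes were next set beside other snoRNA hosts. Of 17 further noncoding hosts 13 had at least 1 FPKM in the higher group, 2 were not in the table (SNHG14 and SNHG26) and 2 were below that level. Of the 13, 9 were lower and 4 higher, 4 were lower by at least 2-fold and 1 was higher by at least 2-fold, and the median log2 change was -0.37, against 56.0% of all rows lower, 8.26% lower by at least 2-fold and 6.49% higher by at least 2-fold. With equal sums 8 were lower, 2 of them by at least 2-fold, beside 4.95% of all rows. The median was then -0.10, beside 0.19 for all rows. SNHG25, whose row also holds the symbols of 2 snoRNAs, was the lowest, with 1496 FPKM in siNT and 463 FPKM in siPAX9 (log2 change -1.69), and SNHG22 the highest, with 4.90 and 10.0 FPKM (log2 change 1.03). DANCR, the host of SNORA26 and the next in mean FPKM, had 211 and 105 FPKM (log2 change -1.00), and SNHG16 had 177 and 67.2 FPKM (log2 change -1.40). The remaining gene past the limit was SNHG17 (log2 change -1.06). Only 1 of the 17 (5.88%) had the pyrimidine run at its most shared start.

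Among coding hosts, all 26 ribosomal protein genes were lower, 8 by at least 2-fold, beside 56.0% and 8.26% of all rows, with a median log2 change of -0.81 and a range from -1.74 for RPL3 (1472 and 440.3 FPKM) to -0.35 for RPLP2 (1149.8 and 899.6 FPKM). RPL30, among the most abundant, had 1582 and 1045 FPKM (log2 change -0.60). Of these 26 genes 19 (73.1%) had the run at the most shared start, and with equal sums 26 were still lower but 4, not 8, by at least 2-fold, beside 4.95% of all rows. The range of the 10 noncoding hosts, from -2.61 to 0.68, passed that of the ribosomal protein hosts at both ends.

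Of 20 other coding hosts 19 were lower and 1 was lower by at least 2-fold, beside 56.0% and 8.26% of all rows, with a median of -0.53. With equal sums 16 were lower, 0 of them by at least 2-fold, beside 4.95% of all rows. The median was then -0.26, beside 0.19 for all rows. The gene past the limit as deposited was HSPA8, a heat shock cognate chaperone, with 1024 and 471 FPKM (log2 change -1.12). RACK1, a scaffold on the ribosome, had 2168 and 1109 FPKM, and the elongation factor EEF2 had 1509 and 775 FPKM. EIF5, a factor of translation initiation, was the 1 with the higher value in siPAX9, with 36.4 and 44.5 FPKM (log2 change 0.29). RCC1 is counted in this list through the row it shares with SNHG3.

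**Figure D3:**
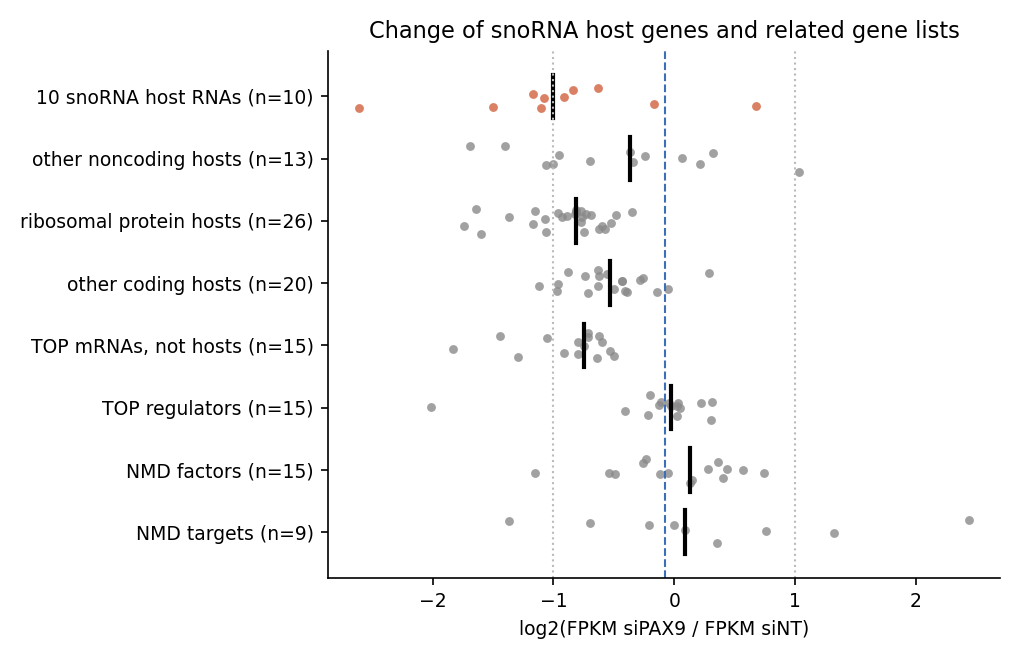
log2 ratio of siPAX9 over siNT, 1 point per gene with at least 1 FPKM in the higher group, for the 10 snoRNA host genes and 7 related lists; black bars are medians, the dashed line is the median of all rows (-0.08) and dotted lines mark 2-fold. The median of the 10 host genes (-1.00) lies lowest, the ribosomal protein hosts (-0.81) and TOP mRNAs without snoRNAs (-0.75) follow, and the TOP regulators, NMD factors and NMD targets lie between -0.03 and 0.13.

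Transcripts listed as TOP mRNAs that hold no snoRNA were lower as well. All 15 such mRNAs were lower, 4 by at least 2-fold, beside 56.0% and 8.26% of all rows, with a median log2 change of -0.75. With equal sums all 15 were still lower, 3 by at least 2-fold, beside 4.95% of all rows. The median was then -0.48, beside 0.19 for all rows. EIF3L, a subunit of the initiation factor eIF3, was the lowest with 237 and 66.5 FPKM (log2 change -1.83), and FAU, which encodes a ribosomal protein fused to a ubiquitin-like protein, differed least with 368 and 261 FPKM (log2 change -0.50). The abundant mRNAs of the elongation factor EEF1A1 (1815 and 1042 FPKM) and of the poly(A)-binding protein PABPC1 (989.8 and 569 FPKM) each had a log2 change of -0.80. Of these 15 genes 10 (66.7%) had the run at the most shared start.

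Across single-symbol rows, genes with the run at the most shared start were lower by median than those without it. Canonical and RefSeq starts were not used in this comparison. Of 320 single-symbol rows with the run and at least 10 FPKM in both groups, 279 were lower (87.2%) and 33 were lower by at least 2-fold (10.3%), with a median log2 change of -0.52. Of 4944 without the run, 2975 were lower (60.2%) and 150 were lower by at least 2-fold (3.03%), with a median of -0.10. At the lower minimum of 1 FPKM in both groups, 404 of 511 rows with the run were lower (79.1%) and 61 by at least 2-fold (11.9%), with a median of -0.43, against 56.1% and 5.49% of 10132 rows without it, with a median of -0.07. At the minimum of 10 FPKM and without the ribosomal protein genes, 266 rows with the run remained, with a median of -0.43. With a run of at least 7 pyrimidines the median was -0.57 over 167 rows. The middle 50% of rows with the run lay between -0.79 and -0.17 and that of rows without it between -0.37 and 0.17, so the distributions overlap. The 6 noncoding hosts with the run ranged from -2.61 to 0.68. GAS5 and SNHG12, at the ends of that range, are not among the single-symbol rows. The part of other properties of these genes in the difference was not tested.

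**Figure D4:**
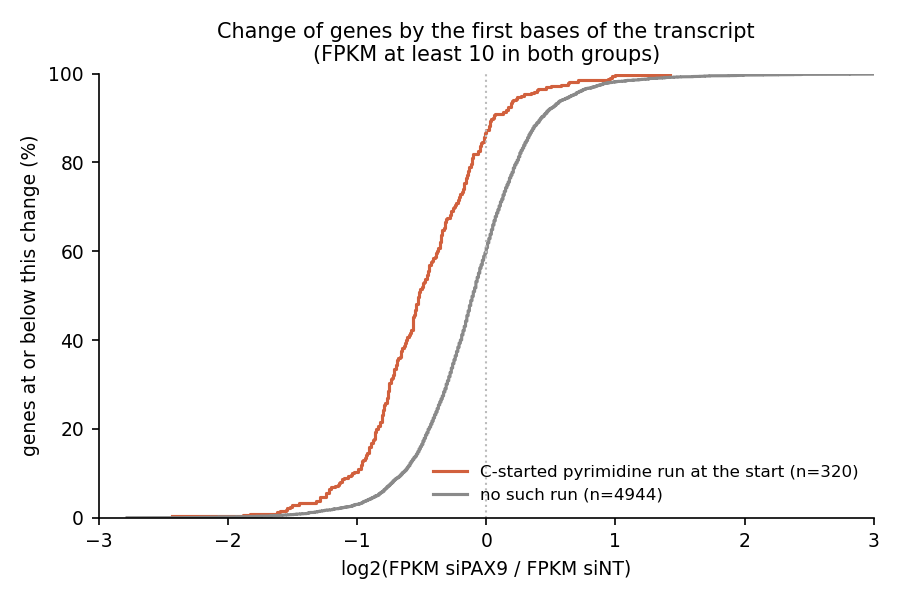
Cumulative share of genes (%) at or below each log2 ratio of siPAX9 over siNT, for 320 genes whose most shared start begins a C-started pyrimidine run and 4944 genes without one, all with at least 10 FPKM in both groups. The curve of genes with the run lies to the left, with medians of -0.52 and -0.10.

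The genes known to act on TOP mRNAs lay on both sides of no difference in the values as deposited. Of 15 such genes 8 were lower, 1 of them by at least 2-fold, and 7 were higher, beside 56.0% of all rows lower and 8.26% lower by at least 2-fold, and the median log2 change was -0.03. With equal sums 2 were lower, 1 of them by at least 2-fold, beside 4.95% of all rows. The median was then 0.24, beside 0.19 for all rows. LARP1, which binds the TOP start, had 103 and 90.0 FPKM in siNT and siPAX9 (log2 change -0.20), and CNBP, a nucleic acid-binding protein, had 95.9 and 82.3 FPKM (log2 change -0.22). MTOR, the kinase upstream of LARP1, had 10.8 and 13.3 FPKM (log2 change 0.30). EIF4EBP1, a repressor of cap-dependent initiation that mTOR phosphorylates, had 122 and 30.5 FPKM, the largest difference in the list (log2 change -2.01). LARP4, a binder of poly(A) tails, was the highest with 18.3 and 22.6 FPKM (log2 change 0.31). These are RNA levels, and neither mTOR activity nor translation is measured by them.

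The genes of NMD, the pathway known to degrade spliced GAS5, were likewise spread to both sides as deposited. Of 15 factors 7 were lower and 8 higher, beside 56.0% of all rows lower, with a median log2 change of 0.13. With equal sums 3 were lower, 0 of them by at least 2-fold, beside 4.95% of all rows. The median was then 0.41, beside 0.19 for all rows. MAGOH, of the exon junction complex, was the 1 lower by at least 2-fold as deposited, against 8.26% of all rows, with 18.6 and 8.38 FPKM (log2 change -1.15). SMG1, the kinase of the NMD factor UPF1, was the highest with 13.0 and 21.6 FPKM (log2 change 0.74), and UPF1 itself had 22.4 and 24.8 FPKM (log2 change 0.15). The 2 most abundant factors, SMG5 and RBM8A, had log2 changes of 0.13 and -0.49.

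Of 10 mRNAs known as NMD targets 9 had at least 1 FPKM in the higher group, of which 3 were lower, 1 by at least 2-fold, and 6 higher, 2 by at least 2-fold, with a median of 0.09. Of all rows 56.0% were lower, 8.26% lower by at least 2-fold and 6.49% higher by at least 2-fold. With equal sums 2 of the 9 were lower, 1 of them by at least 2-fold, beside 4.95% of all rows. ATF4, a transcription factor of the integrated stress response and the most abundant of them in siNT, had 404 and 157 FPKM (log2 change -1.37). CDKN1A, the cell cycle inhibitor p21, had 69.0 and 373 FPKM (log2 change 2.44), and GADD45A, which responds to DNA damage, had 12.0 and 30.1 FPKM (log2 change 1.32). The 9 mRNAs ranged from -1.37 to 2.44 as deposited, and their median with equal sums was 0.36, beside 0.19 for all rows.

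Of the PAX9-binding sequences that the study lists, GCGTGACCA and GCGGAACGG were searched on both strands of the 1 kb upstream of each gene's most shared start, and the others were not used here. GCGTGACCA occurred upstream of 0 of the 10 hosts and of 154 of 55064 genes (0.280%). GCGGAACGG occurred upstream of 1 of the 10 hosts, SNHG5, and of 138 of 55064 genes (0.251%). The match is shown because it is the 1 found, with the letters of the match in capitals, and it lies 139 bases before the start of SNHG5 on the strand of the transcript.
SNHG5 upstream match, chr6:86388587-86388615, minus strand: gctccacaacGCGGAACGGgcctcagaag
Exact letters were required and PAX9 binding was not measured in these files, so the match describes the sequence alone, and the other 9 windows show only that these letters are not in them.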

How the data were processed

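RNA was taken from MCF10A cells 72 hours after transfection with siNT or siPAX9 (3 samples each). Within Partek Flow, the authors placed single-end poly(A)+ reads on hg19 (Bowtie 2), ran Cufflinks, and deposited 1 FPKM per group for each of 41656 rows (27678 with a symbol). Versions of Bowtie 2 and Cufflinks are not given in the sources used here. The deposited fold changes, test statistics, p-values and q-values of the authors' own comparison were not used. Depth per library is not in the table, and counts per gene are not either, so the precision of an FPKM is unknown.

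Gene cells were split at commas and matched by exact symbol, with older symbols taken from RefSeq synonyms. Changes were computed as log2(siPAX9/siNT). Rows with at least 1 FPKM in both groups served as background, and a 2-fold limit was used. No new test could be made from 1 value per group, and the authors' own test results were not used. The members and the 10 other gene lists were chosen with earlier results of these data known. All members are named. Of each other list the text names the 2 genes with the highest mean FPKM and the lowest and highest changes, and it adds PAX9, genes starting within 5 kb of a member row and other genes at member rows. Some genes that this rule covers are not reported here. MTOR, UPF1, GADD45A, SNHG16 and SNHG17 were named after their values were seen.

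Row starts were converted by adding 1, which made 5070 single-symbol row starts equal a canonical transcript start (687 without conversion). Rows cover the whole locus that the authors' quantification merged and can be wider than the gene. Starts came from GENCODE release 44 on GRCh37, where 20605 of 25104 symbols matched 1 gene, and snoRNA contents from RefSeq by containment on GRCh38.p14, for names only. Python 3.11.15, numpy 2.4.6, pandas 2.3.3 and matplotlib 3.10.9 were used, and the scripts were tested on simulated data. Alternatives were 1 added to each FPKM, centring, equal FPKM sums, summed rows, a 1.5-fold limit, a minimum of 10 FPKM, and other start and run definitions.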

Additional observations from a re-analysis of the deposited data

How the results depend on the processing

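No paired analysis was possible because the table gives 1 value per group and no column per sample, and for the same reason no replicate could be left out. Of the 10 hosts, the number lower by at least 2-fold (5) was 2 with equal FPKM sums over named rows and 8 with a 1.5-fold limit, for which the background was 19.7% of all rows. The median log2 change of the hosts (-1.00) was -0.99 with 1 added to each FPKM, -0.92 when centred on the median row, -0.73 with equal sums and -1.08 without the row shared by SNHG3 and RCC1. The number below the median row was 8 or 9 under every setting tried. Centring, equal sums and summed rows leave this number at 9 by construction, so they do not test it. The sign of the change held for 9 hosts under the 4 settings applied to each, and SNHG1 had 0.10 with equal sums. Adding 1 to each FPKM or summing rows could not change a sign, so only centring and equal sums tried it. The pyrimidine run was counted in 6 hosts at the most shared start, in 10 when it could begin within 20 bases (49.2% of all genes), in 3 with at least 7 pyrimidines, in 3 at canonical starts and in 3 at RefSeq starts. Leaving out the shared row, the median of rows of like level, the canonical and RefSeq starts and equal sums for the other gene lists were added after the data were seen. The table holds no counts and no values per sample, and with the authors' own p-values not used here, none of these differences was set against replicate error.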
